A study of Caenorhabditis elegans with 24 samples.

Results

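The distal tip cell (DTC) caps each arm of the developing gonad of the Caenorhabditis elegans hermaphrodite. It leads the arm's migration through larval life and presents Notch ligands to the germ cells below it, which keeps them dividing as stem cells. During L4, the last larval stage, the DTC completes its turn onto the dorsal side and migrates back towards the middle of the body, and by adulthood it has stopped. The account that follows compares DTC fractions at the end of L4 with DTC fractions at its start: 6 of the study's 24 libraries, 3 from late L4 DTC and 3 from early L4 DTC, with every gene in the deposited table considered. Of 46778 genes, 16887 passed a filter on low counts and were tested.

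Both groups were Venus-positive cells, labelled as DTCs, from worms labelled wild type that carried a Venus reporter and grew at 20 °C on plates with OP50 bacteria, and their labels differ in stage only. The same stages also gave Venus-negative other cells (3 libraries each), and late L3 and adult animals gave both fractions (3 libraries per group), so that 8 groups share the fit. Polyadenylated RNA came from about 30000 to 60000 cells, so a library pools many animals. The promoter behind Venus is not given in the sources used here. Nor do they say that replicates were grown separately, and the p-values therefore rest on the spread between libraries, which may be technical.

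Total gene counts were 11892405, 11325030 and 13419200 in the late L4 DTC libraries, against 12527543, 18000822 and 14903849 in the early L4 DTC libraries. Ribosomal RNA took 7.39% to 10.7% of counts in late L4 and 10.8% to 14.3% in early L4, and mitochondrial genes took 0.695% to 0.822% in late L4 and 0.929% to 1.055% in early L4, without overlap. Replicate 3 stood apart from its companions in both groups: correlations of log CPM (the count scaled to a common library size) with the other replicates were 0.847 and 0.871 for late L4 replicate 3 and 0.91 and 0.903 for early L4 replicate 3, against 0.912 between late L4 replicates 1 and 2 and 0.935 between early L4 replicates 1 and 2. Late L4 replicate 3 correlated with early L4 replicate 3 at 0.857, between its values with late L4 replicates 1 (0.847) and 2 (0.871). In both groups the summed level of DTC markers stood above that of other cells. The 20 DTC markers summed to 119507 to 155906 CPM in late L4 DTC, against 131188 to 159332 CPM in early L4 DTC, and to 11122 to 25963 CPM in other cells at late L4 and 3786 to 4676 CPM in other cells at early L4. In DTC most of each sum came from the matrix genes let-2, emb-9 and mig-6, so it says little about the other markers. Of those, hlh-12 fell to a few CPM in late L4. In bulk fractions, fewer cells of a type and less RNA per cell cannot be told apart.

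Late L4 DTC differed from early L4 DTC in 940 genes, 5.57% of those tested, at an adjusted p under 0.05 (edgeR's quasi-likelihood test with Benjamini-Hochberg adjustment). Of these, 641 were higher in late L4 (3.8% of genes tested) and 299 were lower (1.77%). The higher genes moved further: their median absolute log2 fold change was 2.92, and 447 changed at least 4-fold, whereas the median of the lower genes was 1.67, and 125 changed at least 4-fold. The libraries of the 2 groups did not overlap in CPM for 905 of the 940 genes, beside 29.6% of all genes tested (14% with late L4 above and 15.6% with late L4 below). Higher genes were mostly low at early L4, with a median of 82.7 CPM in late L4 DTC and 8.54 CPM in early L4 DTC, and 63 of them had no count in early L4. Of the lower genes 25 had no count in late L4. The median log2 fold change of all genes was 0.00 with TMM scaling and 0.12 with DESeq2's size factors, which gave 763 higher and 216 lower genes.

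**Figure D1:**
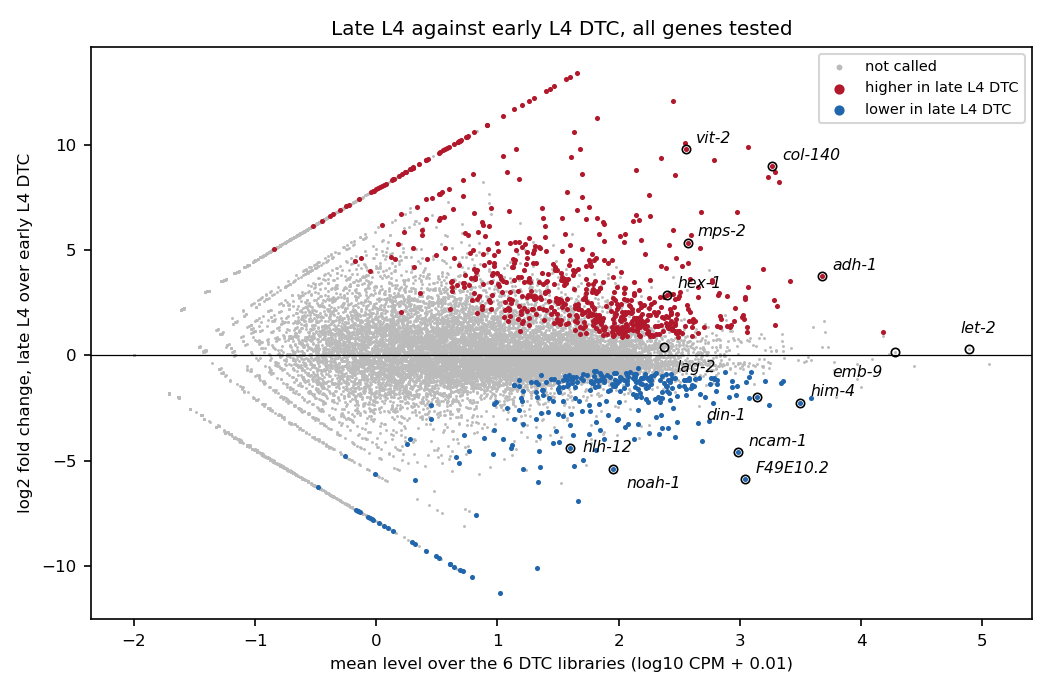
Log2 fold change of late L4 over early L4 DTC (vertical axis) against the mean level over the 6 libraries (horizontal axis, log10 CPM) for the 16887 genes tested, with 641 genes called higher in red and 299 called lower in blue. The straight edges of points at the top and bottom left are genes with 0 counts in 1 of the groups, and the abundant collagen genes let-2 and emb-9 lie near the line of no change.

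The number of calls depended on single libraries. Without early L4 replicate 1 the counts were 331 higher and 161 lower genes, without early L4 replicate 2 they were 457 and 171, and without early L4 replicate 3 they were 326 and 143. Leaving out late L4 replicate 1 gave 417 higher and 130 lower genes, leaving out late L4 replicate 2 gave 476 and 114, and leaving out late L4 replicate 3 gave 587 and 198. In each of these 6 fits 286 of the 641 higher genes and 91 of the 299 lower genes were called. Without the filter on low counts, 519 and 178 of them were. Where leaving out a library ended the call of the DTC step of a gene named below, this is given beside it, as a range where several did. For the difference between DTC and other cells, only the counts of genes called are given. Called and not called refer to the edgeR fit of the 24 libraries unless another tool or fit is named. Counts of list members called stand beside 3.8% higher and 1.77% lower of all genes tested.

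The X chromosome carried 24.5% of the higher genes and 19.7% of the lower genes, against 14.1% of the genes tested. The lower genes also held a larger share that stood above other cells at late L3. At late L3, 23.7% of the genes that later fell (71 genes) were at least 4-fold above other cells, compared with 2.65% of the genes that later rose (17 genes) and 3.58% of all genes tested. Without the other-cell library of late L3 that stood apart from its group (replicate 3), these shares were 23.1%, 2.65% and 3.92%. The shares were not matched for expression level, and the lower genes had the highest median CPM of these sets in early L4 DTC. The part of expression level in the contrast was not tested.

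The steepest rises were in genes with few or no counts in early L4 DTC. Yolk protein gene vit-5 had 78.7, 34.3 and 158 CPM in late L4 and no count in early L4, which makes it at least 1319-fold higher, measured against 3 counts over the early L4 group. By the same measure vap-2 was at least 705-fold higher and nas-20, an astacin metalloprotease gene, at least 450-fold higher. Others of the 12 steepest rises were the collagens col-7, col-19 and col-143, vit-6, ssp-37, sre-41, cyp-34A7, pes-23 and spex-3. Of these, sre-41 lost its call without early L4 replicates 1, 2 or 3 (adjusted p 0.0729, 0.0654 and 0.0778), and cyp-34A7 lost it without any 1 of the 6 libraries (0.0649 to 0.144).

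Among the 12 steepest falls, 6 genes had no count at all in late L4 DTC. Of these let-653, which encodes a matrix protein of the precuticle, had 8.25, 4.28 and 6.18 CPM in early L4 and was at least 66.5-fold lower, with its call kept in all 6 leave-outs. The call of nkat-1, at 9.61, 7.09 and 19.9 CPM in early L4, was lost without late L4 replicate 1 (0.0522) or 2 (0.051). The calls of ugt-57, idpp-1, osr-1 and nas-15 were each lost without 4 or more of the 6 libraries, with adjusted p up to 0.137. Precuticle genes (noah-1, lpr-1, lpr-3), the cuticle collagen dpy-7, the hedgehog-related wrt-10 and the claudin-like clc-5 completed the set. Calls were lost for wrt-10 without late L4 replicates 1 or 2 (0.0607 and 0.0524) and for clc-5 without early L4 replicate 3 or late L4 replicates 1 or 2 (0.0631 to 0.112).

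Among regulators of the DTC itself, the basic helix-loop-helix factor hlh-12 fell to a few CPM, and the niche ligand genes lag-2 and apx-1 were not called. HLH-12 works with HLH-2 to drive DTC migration. The gene (chromosome IV, 8478595 to 8479446, minus strand, ce11) had 2.56, 5.71 and 2.56 CPM in late L4 DTC, against 63.5, 66.3 and 96.9 CPM in early L4 DTC. Every late L4 library lay far below every early L4 library, and the log2 fold change was -4.38 ± 0.85 (standard error, adjusted p = 0.00323). Over the 4 stages its DTC level averaged 358 ± 43.8, 75.5 ± 18.5, 3.61 ± 1.82 and 3.47 ± 0.914 CPM (in order from late L3 to adult, SD, n = 3 each). Other cells held 2.22 CPM or less on average at each stage.

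The Notch ligand lag-2, which keeps germ cells in a stem cell state, had 251, 218 and 341.4 CPM in late L4 DTC and 206, 194 and 214 CPM in early L4 DTC. The difference did not pass the test (log2 fold change 0.40 ± 0.80, adjusted p = 0.851). Its companion ligand apx-1 overlapped between the groups at 56.5, 62.4 and 78.5 CPM in late L4 and 50.5, 57.7 and 75.7 CPM in early L4 (0.10 ± 0.51, adjusted p = 0.958). For hlh-2, values of 132, 115.5 and 259 CPM in late L4 overlapped with 90, 92.5 and 126 CPM in early L4 (adjusted p = 0.703). Of 13 Notch ligand genes tested, 1 rose: osm-11, a secreted co-ligand, with 233, 116.4 and 31.7 CPM in late L4 and 10.2, 23.9 and 7.51 CPM in early L4 (3.19 ± 0.79, adjusted p = 0.0203). That call was lost without early L4 replicate 1 (0.106) or 3 (0.123) or late L4 replicate 1 (0.12). None of 13 Notch receptor and effector genes was called by edgeR on the 24 libraries or by DESeq2, edgeR on the 6 compared libraries called 1 lower, limma voom called 2 lower, and 1 was lower at an unadjusted p under 0.05, a level that 3262 of all genes tested passed.

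The somatic gonad list of 26 transcription factors had 1 more change beside hlh-12. The Exd/Pbx homologue ceh-20 had 53, 57.9 and 86.3 CPM in late L4 and 25.7, 21.2 and 17.8 CPM in early L4 (1.61 ± 0.42, adjusted p = 0.0281). Its call was lost without any of early L4 replicates 1 to 3 or late L4 replicates 2 or 3 (0.0549 to 0.16).

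The guidance receptors that steer the dorsal turn were not called. The netrin receptor unc-5 had 208, 165 and 328 CPM in late L4 and 232, 223 and 322 CPM in early L4 (-0.15 ± 0.74, adjusted p = 0.959), and its fitted sign turned with DESeq2's size factors (0.01). Its partner unc-40 had 314, 218 and 339 CPM in late L4 and 227, 193 and 197 CPM in early L4 (adjusted p = 0.478). Both pairs of groups overlapped. Of 29 guidance genes, mab-20, which encodes a semaphorin, fell to 121 ± 9.66 CPM in late L4, against 384 ± 30.5 CPM in early L4 (SD, n = 3 each, -1.67 ± 0.39, adjusted p = 0.0136, lost without late L4 replicate 1 at 0.0502 or 2 at 0.0864).

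Integrins anchor the migrating DTC to the basement membrane, and the Pax6 homologue VAB-3 is known to regulate their alpha chains there. The alpha chain gene ina-1 had 449, 379 and 322 CPM in late L4 and 788, 778 and 955 CPM in early L4. It was called lower (-1.13 ± 0.32, adjusted p = 0.04), but the call was lost without any 1 of the 6 libraries (0.076 to 0.153) and with DESeq2's size factors (0.0908). The other alpha chain gene, pat-2, had 501, 430 and 384 CPM in late L4 and 121, 97.9 and 118 CPM in early L4, and the groups did not overlap (1.97 ± 0.61, adjusted p = 0.0675). It was called higher under 6 of 15 alternatives, DESeq2's size factors (0.0444) and DESeq2 (0.0061) among them. The beta chain gene pat-3 (0.13 ± 0.33, adjusted p = 0.89) and vab-3 (0.35 ± 0.71, adjusted p = 0.855) overlapped between the groups. The DTC-enriched F-box gene fbxa-154 fell to 78.3, 92.7 and 58.2 CPM in late L4, against 368, 337 and 376 CPM in early L4 (-2.24 ± 0.61, adjusted p = 0.0465, 0.0947 to 0.154 without any 1 library). The migration gene mig-21 had 892, 1017 and 1659 CPM in late L4 and 512, 455 and 644 CPM in early L4, with no call (1.15 ± 0.97, adjusted p = 0.564, and 0.00172 by limma voom and 0.0301 in the 6 compared libraries).

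**Figure D2:**
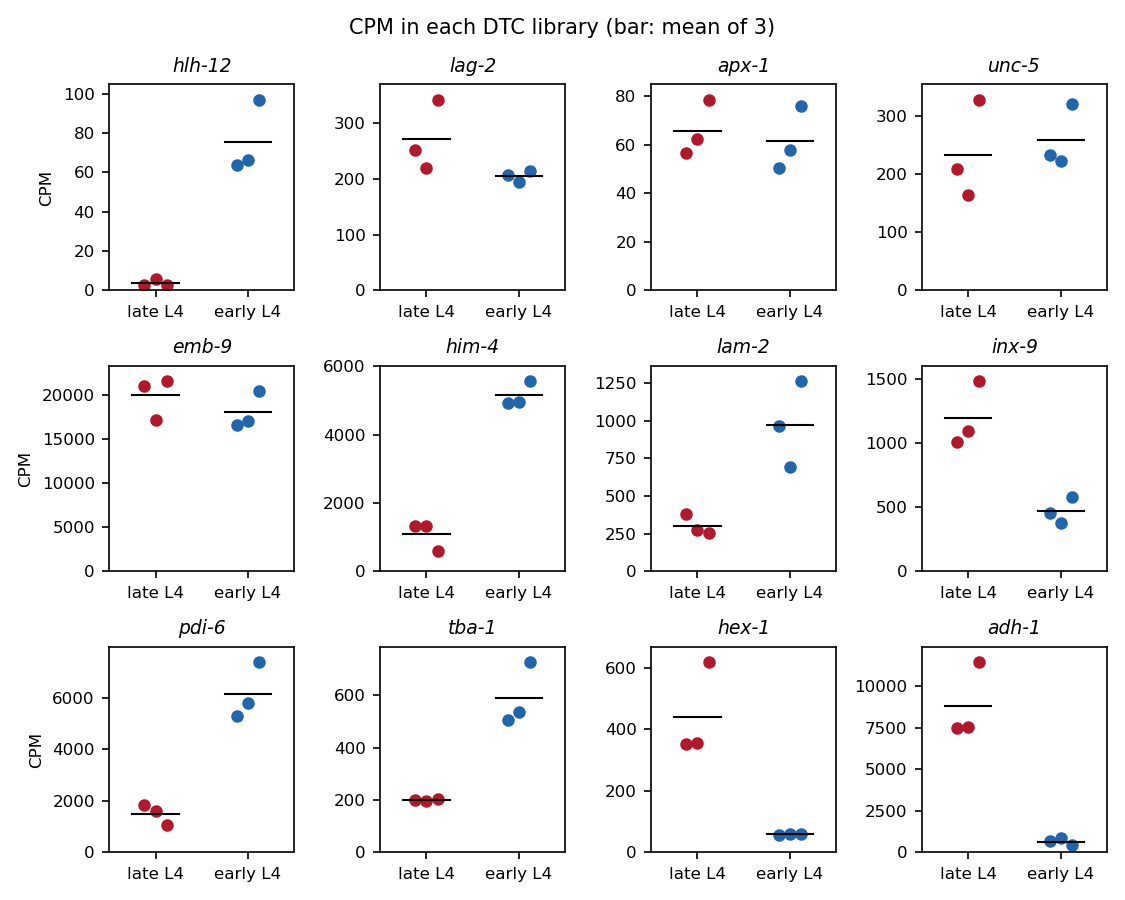
CPM of 12 genes in each DTC library (vertical axes start at 0), with late L4 in red and early L4 in blue and a bar at the mean of 3 libraries. The transcription factor gene hlh-12 and the matrix genes him-4 and lam-2 are lower in late L4, the gap junction gene inx-9, the lysosomal hex-1 and adh-1 are higher, and lag-2, apx-1, unc-5 and emb-9 were not called.

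The basement membrane list held 2 falls (8%, beside 1.77% of all genes tested) and 1 rise (4%, beside 3.8%). Type IV collagen, the main network former of the membrane, was not called. Its alpha-1 chain gene emb-9 had 21082, 17238 and 21647 CPM in late L4 and 16630, 17055 and 20480 CPM in early L4 (0.15 ± 0.35, adjusted p = 0.885). The alpha-2 chain gene let-2 had 85258, 70561 and 100170 CPM in late L4 and 65780, 65878 and 78510 CPM in early L4 (0.28 ± 0.39, adjusted p = 0.76). In both the groups overlapped.

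Hemicentin, an extracellular protein that links tissues across basement membranes, had the lower adjusted p of the 2 falls. Its gene him-4 (chromosome X, 9717565 to 9753764, plus strand) had 1339, 1329 and 602 CPM in late L4, against 4925, 4958 and 5573 CPM in early L4 (-2.24 ± 0.40, adjusted p = 0.00175). The laminin gamma chain gene lam-2 fell to 384, 274 and 253 CPM in late L4, against 967, 693 and 1266 CPM in early L4 (-1.68 ± 0.46, adjusted p = 0.0365). The lam-2 call was lost without early L4 replicates 1 or 3 or any late L4 replicate (0.0722 to 0.149) and with DESeq2's size factors (0.0589). Its partner chains were not called: the alpha chain gene epi-1 had 6448, 5613 and 5753 CPM in late L4 and 11929, 11670 and 14652 CPM in early L4 (-1.1 ± 0.35, adjusted p = 0.0753), and the beta chain gene lam-1 overlapped (-0.92 ± 0.43, adjusted p = 0.247). For epi-1 the groups did not overlap, and it was called lower by limma voom (1.43e-05), without the filter on low counts (0.0476) and in the 6 compared libraries (0.00679). Limma voom also called lam-1 lower (0.00452).

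Nidogen, which bridges laminin and collagen, was lower in every late L4 library without a call. The gene nid-1 had 5467, 5037 and 5102 CPM in late L4 and 13558, 13189 and 17324 CPM in early L4, with no overlap (-1.50 ± 0.56, adjusted p = 0.134). Of 15 alternatives, 4 called it (lowest adjusted p 7.05e-09). Papilin gene mig-6 had 24834, 20971 and 21788 CPM in late L4 and 30556, 29997 and 36478 CPM in early L4 (-0.52 ± 0.33, adjusted p = 0.41, and 0.00575 by limma voom). Fibulin gene fbl-1 was the only member of the 25 tested that was called higher, with 16.9, 20.8 and 50.2 CPM in late L4 and 0.721, 1.18 and 0.156 CPM in early L4 (5.38 ± 1.52, adjusted p = 0.0414). That call was lost without any 1 library (0.0629 to 0.186).

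The metalloprotease list also holds the inhibitor gene timp-1 and the papilin gene mig-6. It gave 3 higher genes of 19 by edgeR (15.8%, beside 3.8% of all genes tested). Limma voom called 5 higher and 3 lower. The matrix metalloprotease gene zmp-4 had 173, 209 and 377 CPM in late L4, against 40.1, 47.3 and 48.5 CPM in early L4 (2.48 ± 0.38, adjusted p = 0.000349). The tissue inhibitor of metalloproteases timp-1 rose at a low level, to 6.54, 10.2 and 14.9 CPM in late L4, against 2, 2.25 and 0.861 CPM in early L4 (2.62 ± 0.57, adjusted p = 0.00772, and 0.065 without early L4 replicate 3). The third was zmp-1, known from the anchor cell and vulva, at 93.6, 104.2 and 176 CPM in late L4 and 52.2, 57.2 and 55.6 CPM in early L4 (1.18 ± 0.33, adjusted p = 0.0408, 0.0502 to 0.2 without any 1 library). The ADAMTS proteases that open the path of the DTC were not called: gon-1 had 19.1, 12.2 and 15.6 CPM in late L4 and 45.2, 42.5 and 37.1 CPM in early L4 without overlap (-1.41 ± 1.23, adjusted p = 0.583, and 0.0466 by limma voom and 0.0175 in the 6 compared libraries), and mig-17 overlapped (adjusted p = 0.712).

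Of 32 integrin complex and adhesion genes, 3 rose (9.38%) and 2 fell (6.25%), beside 3.8% and 1.77% of all genes tested. Zyxin gene zyx-1, a focal adhesion component, had 452, 447 and 535 CPM in late L4 and 90, 152.2 and 54 CPM in early L4 (2.28 ± 0.29, adjusted p = 5.79e-05). The p120 catenin gene jac-1 had 214, 145 and 245 CPM in late L4 and 58.1, 52.5 and 41.3 CPM in early L4 (1.99 ± 0.38, adjusted p = 0.00277). A LIM protein of muscle attachments, unc-95, also rose (2.21 ± 0.61, adjusted p = 0.0368, 0.0702 to 0.186 without any 1 library). The cadherin gene hmr-1 fell with ina-1 (-0.87 ± 0.23, adjusted p = 0.0267, 0.0621 to 0.151 without any 1 library). With DESeq2's size factors the list gave 6 higher genes and no lower one.

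The actin list of 54 genes held 3 rises (5.56%) and 5 falls (9.26%), beside 3.8% and 1.77% of all genes tested. It held 1 to 4 falls when any 1 DTC library was left out. The FERM domain gene frm-1 had 654, 591 and 600 CPM in late L4 and 203, 211 and 206 CPM in early L4 (1.57 ± 0.25, adjusted p = 0.000527). Actin genes act-4 (1.1 ± 0.22, adjusted p = 0.00469) and act-5 (1.28 ± 0.26, adjusted p = 0.00434) also rose, though near-identical actin copies can share reads. The spectrin gene sma-1 fell to 73.2, 63.1 and 34.9 CPM in late L4, against 193, 236 and 238 CPM in early L4 (-1.96 ± 0.35, adjusted p = 0.00155).

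Filamin gene fln-2 fell to 399, 438 and 494 CPM in late L4, against 1146, 1281 and 1382 CPM in early L4 (-1.52 ± 0.36, adjusted p = 0.0144, lost without late L4 replicate 1 at 0.0725 or 2 at 0.0833). Non-muscle myosin heavy chain gene nmy-2 fell as well (-1.15 ± 0.29, adjusted p = 0.0195), and lost its call without early L4 replicate 3 (0.0886) or late L4 replicates 1 (0.0629) or 2 (0.108). Its paralogue nmy-1 was not called (-0.23 ± 0.32, adjusted p = 0.759). Body wall muscle markers, 31 genes that include act-4 and zyx-1, summed to 25955 to 39052 CPM in late L4 DTC and to 13319 to 20113 CPM in early L4 DTC without overlap, with 1 or 2 members at 0 in any library, and 3 of them rose and 2 fell. Their part in these changes was not tested.

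Tubulin genes were among the falls. Of 50 microtubule and motor genes, 7 were lower (14%) and 2 higher (4%), against 1.77% and 3.8% of all genes, and 4 or 5 were lower without any 1 DTC library. The alpha-tubulin gene tba-1 had 201, 196 and 206 CPM in late L4, against 507, 536 and 728 CPM in early L4 (-1.56 ± 0.20, adjusted p = 5.79e-05). Fellow alpha-tubulin gene tba-2 fell to 423, 381 and 376 CPM, against 728, 775 and 1006 CPM in early L4 (-1.09 ± 0.18, adjusted p = 0.000756). The beta-tubulin gene tbb-2 (-1.02 ± 0.19, adjusted p = 0.0022) and the plus-end binding ebp-2 (-1.88 ± 0.39, adjusted p = 0.00483) followed. All 4 calls were kept in the 6 leave-outs. In the other direction coel-1, related to tubulin folding cofactors, had 693, 590 and 1158 CPM in late L4 and 76.2, 101.3 and 76.6 CPM in early L4 (3.26 ± 0.49, adjusted p = 0.000339). The minus-end protein gene ptrn-1, needed for microtubule organisation in several cell types, was not called (-0.76 ± 0.37, adjusted p = 0.261, and 0.000365 by limma voom).

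The secretory pathway fell at many genes. Proteins of the matrix are folded in the endoplasmic reticulum (ER) and carried through the Golgi. Of 44 genes for ER folding and collagen modification, 12 were lower (27.3%) and 1 higher (2.27%), and of 55 genes for transport from ER to Golgi and exocytosis, 15 were lower (27.3%) and 2 higher (3.64%). Median log2 fold changes were -0.56 and -0.78, against 0.00 for all genes. With DESeq2's size factors 11 and 12 genes were lower, and without any 1 DTC library 9 to 11 and 7 to 11. In other cells the medians were -0.30 and -0.28. A difference between the steps of DTC and other cells was called by edgeR for 1 and 0 genes. DESeq2 called 3 and 3 such differences, and limma voom 7 and 3.

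Protein disulphide isomerase gene pdi-6 had 1848, 1616 and 1055 CPM in late L4, against 5279, 5778 and 7397 CPM in early L4 (-2.03 ± 0.35, adjusted p = 0.00103). The ER chaperone BiP gene hsp-3 fell to 573, 577 and 351 CPM, against 1233, 1360 and 1579 CPM in early L4 (-1.47 ± 0.28, adjusted p = 0.00295). Its stress-inducible paralogue hsp-4 was not called (-1.0 ± 0.43, adjusted p = 0.202, and 0.00949 by limma voom). The cyclophilin gene cyn-5 (-1.44 ± 0.28, adjusted p = 0.00286) and the oligosaccharyltransferase gene ribo-1 (-1.16 ± 0.24, adjusted p = 0.00463) fell too. Enzymes that hydroxylate collagen were not called: the prolyl hydroxylase gene phy-2 (-0.36 ± 0.49, adjusted p = 0.757) and the lysyl hydroxylase gene let-268 (-0.32 ± 0.36, adjusted p = 0.689) overlapped. The 1 higher member was bli-3, a dual oxidase that crosslinks cuticle (3.62 ± 0.80, adjusted p = 0.00846, lost without early L4 replicate 1 at 0.0525 or 3 at 0.0521).

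Translocon-associated genes trap-2 and trap-1, which act where new proteins enter the ER, fell by 1.85 ± 0.27 and 1.58 ± 0.30 on the log2 scale (adjusted p = 0.000209 and 0.00278). The level of trap-2 was 65.7, 61.1 and 43.5 CPM in late L4, against 189, 191 and 233 CPM in early L4. The coatomer gene copb-2 fell to 50.2, 45 and 51.2 CPM in late L4, against 124, 130 and 143 CPM in early L4 (-1.44 ± 0.21, adjusted p = 0.000221). The ER exit site gene tfg-1 fell by 1.34 ± 0.26 (adjusted p = 0.00282). Late steps of exocytosis moved the other way at 2 genes, the small GTPase gene rab-8 (1.16 ± 0.28, adjusted p = 0.0166) and the vesicle fusion gene unc-18 (1.42 ± 0.37, adjusted p = 0.0247). Both lost their calls without early L4 replicates 1, 2 or 3 or late L4 replicate 3 (0.0609 to 0.114), and unc-18 also without late L4 replicate 1 (0.0882).

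Proteasome genes were among the falls. Of 33 subunit genes tested, 7 were lower (21.2%), none was higher by edgeR, DESeq2 or limma voom or at an unadjusted p under 0.05 (0 genes), and all 33 had a fitted value below 0, with a median log2 fold change of -0.64. The catalytic subunit gene pbs-5 had 74.1, 83.6 and 85.4 CPM in late L4, against 157, 156 and 147 CPM in early L4 (-0.92 ± 0.20, adjusted p = 0.00675, and 0.158 without the filter on low counts). The count depended on the scaling and on single libraries: with DESeq2's size factors 3 subunits were lower, and without any 1 DTC library 1 to 3 were. In other cells the proteasome median was -0.42. A difference between the steps of DTC and other cells was called for 0 subunits by edgeR, DESeq2 and limma voom. Genes for making protein had low counts of calls but mostly fitted values below 0: 1 of 83 cytosolic ribosomal protein genes was lower (81 of 83 fitted below 0, median -0.45), 0 of 39 ribosome biogenesis genes (limma voom 12 lower, 7 lower at an unadjusted p under 0.05), 1 of 31 aminoacyl-tRNA synthetase genes and 2 of 41 translation factor genes. Medians of the same lists in other cells were -0.53, -0.45, -0.50 and -0.51. None of 72 oxidative phosphorylation genes was called by edgeR, DESeq2 called 1 higher, limma voom 1 in each direction, and 1 was higher at an unadjusted p under 0.05.

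Lysosomal genes were among the rises. Of 49 genes of the vacuolar ATPase and lysosome, 7 were higher (14.3%), none was lower by edgeR, DESeq2 or limma voom or at an unadjusted p under 0.05 (0 genes), and 45 had a fitted value above 0 (median 0.63). Without any 1 DTC library 4 to 6 were higher. In other cells the median of the list was 0.37. A difference between the steps of DTC and other cells was called for 0 members by edgeR and DESeq2 and 2 by limma voom. The hexosaminidase gene hex-1 had 351, 354 and 620 CPM in late L4 and 57.5, 61.3 and 60.8 CPM in early L4 (2.88 ± 0.31, adjusted p = 1.35e-05). The TFEB homologue hlh-30, a transcription factor that governs lysosome and autophagy genes, had 232, 255 and 391 CPM in late L4 and 60.3, 71.6 and 52.5 CPM in early L4 (2.25 ± 0.32, adjusted p = 0.000185). Aspartyl protease gene asp-4 had 1297, 1346 and 1445 CPM in late L4 and 219.9, 245.5 and 118.5 CPM in early L4 (2.81 ± 0.53, adjusted p = 0.00243). The acid sphingomyelinase gene asm-1 rose by 3.51 ± 0.68 (adjusted p = 0.00339).

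Autophagy genes gave 4 higher members of 25 (16%) and 1 lower, and the 4 rises were called in each of the 6 leave-outs. The list median was 0.40 in DTC and 0.27 in other cells. A difference between these steps was called for 0 members by edgeR, DESeq2 and limma voom. Both Atg8 homologues, which coat the autophagosome membrane, rose. The level of lgg-1 was 348, 338 and 469 CPM in late L4 and 120, 152.3 and 143 CPM in early L4 (1.48 ± 0.24, adjusted p = 0.000679), and lgg-2 had 239, 212 and 379 CPM in late L4 and 67.3, 78.2 and 75.9 CPM in early L4 (1.91 ± 0.30, adjusted p = 0.000479). The others were hlh-30 and epg-4 (2.04 ± 0.38, adjusted p = 0.0024). The fall was in epg-2, an adaptor for degrading germline granule proteins (-1.96 ± 0.55, adjusted p = 0.0403, lost without 5 of the 6 libraries at 0.0815 to 0.18). Engulfment genes ced-1 (1.34 ± 0.30, adjusted p = 0.00885) and ced-6 (1.76 ± 0.40, adjusted p = 0.0103), with rab-7 and dyn-1, were the 4 higher of 36 endocytosis genes, and the adaptor subunit gene apb-1 was the 1 lower (0.0739 without late L4 replicate 1). Without early L4 replicate 1 or late L4 replicate 3 none of the 4 higher genes was called (0.0509 to 0.18). Calls of ced-6 and rab-7 were also lost without early L4 replicates 2 or 3 (0.0527 to 0.134). For dyn-1 the call was lost without any 1 library (0.0508 to 0.178).

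Of 29 glycolysis genes, 8 were higher (27.6%) and none was lower by edgeR, DESeq2 or limma voom or at an unadjusted p under 0.05 (0 genes), with 6 to 8 higher when any 1 DTC library was left out. The list median was 0.24 in DTC and 0.27 in other cells, where 3 members were called higher. A difference between these steps was called for 0 members by edgeR and DESeq2 and 1 by limma voom. Aldolase gene aldo-1 had 292, 198 and 291 CPM in late L4 and 77.7, 101.1 and 68.8 CPM in early L4 (1.66 ± 0.23, adjusted p = 0.000161). The glyceraldehyde-3-phosphate dehydrogenase gene gpd-3 had 383, 435 and 465 CPM in late L4 and 141, 166 and 159 CPM in early L4 (1.46 ± 0.23, adjusted p = 0.000577), and its near-copy gpd-2 rose alike (1.52 ± 0.28, adjusted p = 0.00177). Lactate dehydrogenase gene ldh-1 rose by 1.23 ± 0.22 (adjusted p = 0.00136), and the hypoxia factor hif-1 by 1.38 ± 0.26 (adjusted p = 0.00237), the first of 3 higher genes among 42 for heat shock and oxidative stress, with hsp-12.3 and hsp-43, whose call was lost without 5 of 6 libraries (0.0501 to 0.167).

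Lipid genes gave 6 higher members of 55 (10.9%), while DESeq2 called 16 higher and 2 lower. The mitochondrial acyl-CoA synthetase gene acs-2, used in fatty acid oxidation, had 560, 570 and 751 CPM in late L4 and 33.5, 50.6 and 16 CPM in early L4 (4.23 ± 0.67, adjusted p = 0.000526). The Mediator subunit gene mdt-15, a co-activator of lipid genes, rose by 1.92 ± 0.27 (adjusted p = 0.000161), the lipin gene lpin-1 by 1.63 ± 0.26 (adjusted p = 0.000612) and the perilipin gene plin-1 by 1.94 ± 0.35 (adjusted p = 0.00186). Intestinal markers, 28 genes, summed to 3669 to 5201 CPM in late L4 DTC and 1064 to 1324 CPM in early L4 DTC, with 1 to 3 members at 0 in any library. Of these 5 rose, among them vit-2, vit-6, act-5 and the intermediate filament gene ifc-2. Fitted values lay above 0 for 23 of the 28 and below 0 for 5, with a median of 1.23. The members elt-2 and ges-1 were named after their values were seen. The intestinal master factor elt-2 stood at 9.95, 4.8 and 2.99 CPM in late L4 and 0.881, 0 and 1.96 CPM in early L4 (adjusted p = 0.239, and 0.00881 by limma voom), and the gut esterase ges-1 at 1.97 CPM or less in every late L4 library. The part of intestinal RNA in the rise of acs-2, mdt-15, lpin-1 and plin-1 was not tested.

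**Figure D3:**
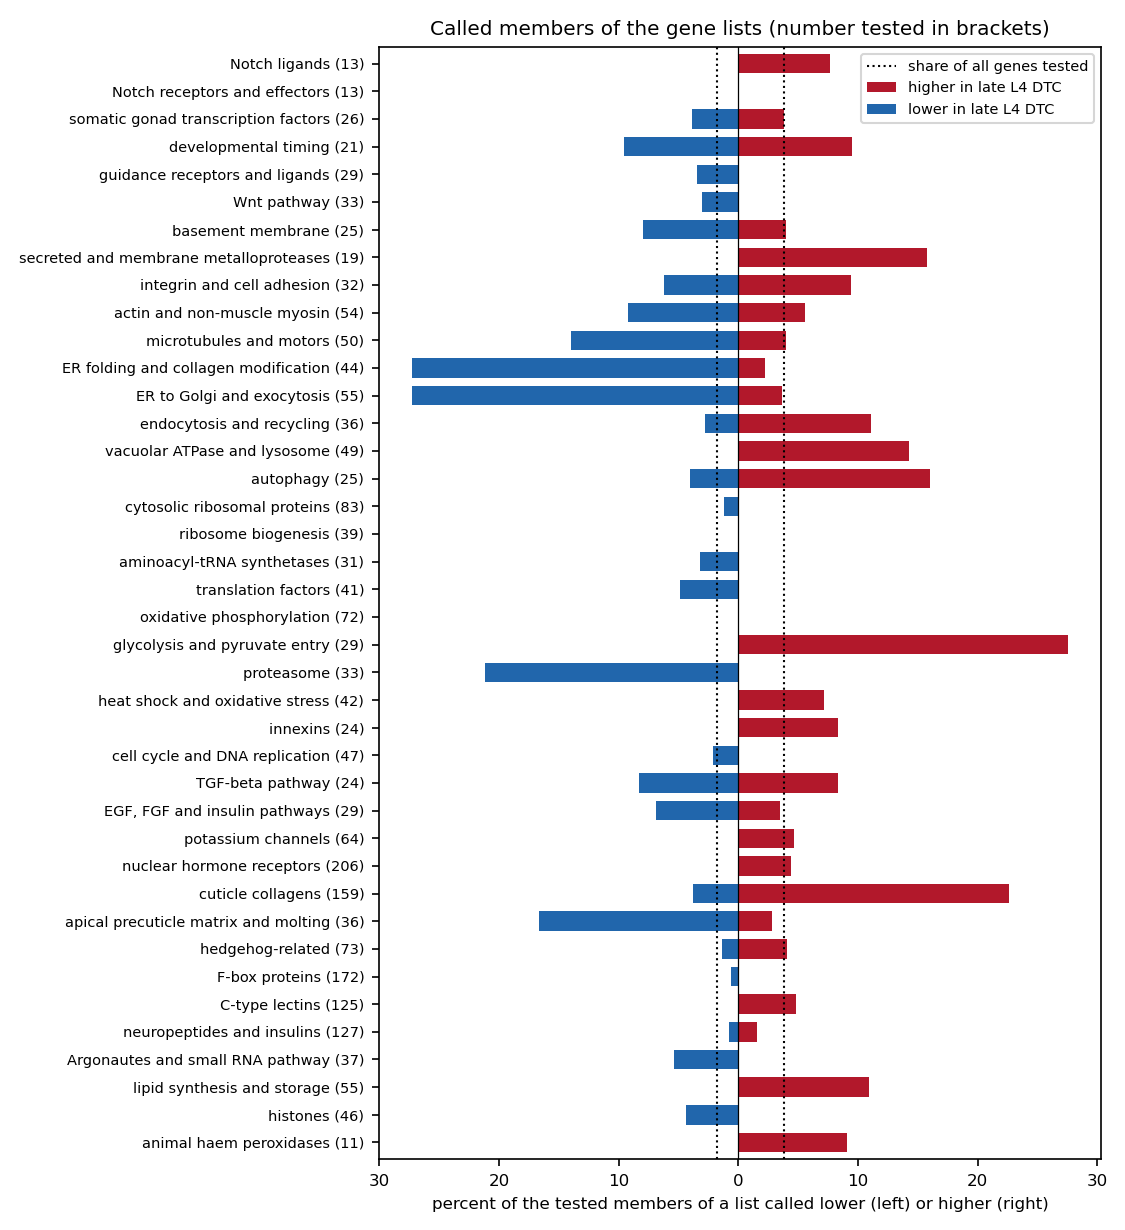
Percent of the tested members of 40 gene lists called lower (left, blue) or higher (right, red) in late L4 DTC, with the number tested in brackets and dotted lines at the shares of all genes tested (1.77% lower, 3.8% higher). Both ER and Golgi lists and the proteasome reach furthest to the left, and glycolysis and cuticle collagens furthest to the right. The 6 yolk protein genes, all called higher, are not drawn.

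Genes that time larval development changed in both directions. Of 21 tested, 2 rose (9.52%, beside 3.8% of all genes tested) and 2 fell (9.52%, beside 1.77%). The DAF-12 co-repressor gene din-1 fell to 558, 537 and 582 CPM in late L4, against 2214, 2238 and 2112 CPM in early L4 (-1.97 ± 0.37, adjusted p = 0.0026), and kept its call in all leave-outs. The period homologue lin-42, whose level cycles with the molts, fell to 16.12, 16.9 and 6.32 CPM, against 107, 127 and 121 CPM in early L4 (-3.17 ± 0.76, adjusted p = 0.0169, and 0.0537 to 0.0724 without any of the 3 late L4 libraries).

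The early-acting heterochronic gene lin-14 had 27.1, 14.8 and 19.9 CPM in late L4 and 2.4, 2.31 and 0.548 CPM in early L4 (3.55 ± 0.90, adjusted p = 0.0248). The nuclear receptor gene nhr-85, which drives pulses of developmental microRNA genes, had 12.3, 16.7 and 29.4 CPM in late L4 and 0.801, 3.77 and 2.74 CPM in early L4 (2.99 ± 0.78, adjusted p = 0.0258). Since nhr-85 overlaps a gene on the opposite strand and the counting's strand setting is not given, its reads may be mixed. Both rises were modest in level, and both calls were lost without early L4 replicates 1 or 3 (0.0815 to 0.134), lin-14 also without early L4 replicate 2 (0.0718) or late L4 replicate 1 (0.0845), and nhr-85 also without late L4 replicate 3 (0.0934). The receptor gene daf-12 (0.07 ± 0.47, adjusted p = 0.976) and the terminal factor lin-29 (-1.15 ± 0.72, adjusted p = 0.411, and 0.0445 by limma voom and 0.0366 in the 6 compared libraries) were not called. Of 33 Wnt pathway genes the Nemo-like kinase gene lit-1 fell, to 334, 278 and 380 CPM in late L4, against 1279, 1306 and 1297 CPM in early L4 (-1.97 ± 0.27, adjusted p = 0.000109).

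Lists of receptor signalling genes held few calls, beside 3.8% higher and 1.77% lower of all genes tested. Of 24 TGF-beta pathway genes, 2 were higher (8.33%) and 2 lower (8.33%). Without any 1 DTC library, 1 or 2 were higher and 0 to 2 lower. In the TGF-beta pathway (24 genes) daf-5, a Sno/Ski factor of the dauer branch, had 335 ± 125 CPM in late L4 and 58.3 ± 12.6 CPM in early L4 (SD, n = 3 each, 2.52 ± 0.38, adjusted p = 0.000306). The type II receptor gene daf-4 rose by 1.3 ± 0.33 (adjusted p = 0.0248, lost without 5 of 6 libraries at 0.0576 to 0.143). The BMP type I receptor gene sma-6 fell to 9.01, 9.06 and 6.15 CPM in late L4, against 44.4, 63.1 and 58 CPM in early L4 (-2.77 ± 0.67, adjusted p = 0.0176, lost without 5 of 6 libraries at 0.0512 to 0.0714). The tetraspanin gene tsp-14, which promotes BMP signalling, fell by 2.79 ± 0.65 on the log2 scale (adjusted p = 0.0135, lost without late L4 replicate 1 at 0.0735 or 3 at 0.0645).

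Of 29 EGF, FGF and insulin genes, 1 was higher (3.45%, beside 3.8% of all genes tested) and 2 were lower (6.9%, beside 1.77%). Without any 1 DTC library, 1 was higher and 1 lower. In the insulin pathway the kinase gene akt-1 fell to 144, 176 and 148 CPM in late L4, against 622, 584 and 495 CPM in early L4 (-1.86 ± 0.38, adjusted p = 0.00439). The FOXO factor daf-16, which AKT-1 restrains, had 182, 207 and 328 CPM in late L4 and 114, 106 and 102 CPM in early L4 (1.16 ± 0.21, adjusted p = 0.0022, and 0.0503 without the filter on low counts). The receptor gene daf-2 fell by 1.09 ± 0.28 (adjusted p = 0.0257, 0.0516 to 0.158 without any 1 library).

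Gap junctions couple the somatic gonad with the germ line, and 2 of 24 innexin genes rose (8.33%, beside 3.8% of all genes tested). The level of inx-9 was 1006, 1096 and 1483 CPM in late L4 and 453, 376 and 576 CPM in early L4 (1.35 ± 0.29, adjusted p = 0.00699), and inx-8 had 178, 259 and 208 CPM in late L4 and 65.8, 58.7 and 127 CPM in early L4 (1.36 ± 0.35, adjusted p = 0.0235, lost without early L4 replicates 1 or 2 or late L4 replicate 2 at 0.0836 to 0.131). Both genes serve the gonadal sheath too, and the 23 sheath and spermatheca markers, which include them, summed to 3467 to 3618 CPM in late L4 DTC and 2390 to 2864 CPM in early L4 DTC, with none at 0. These were the 2 sheath markers called by edgeR on the 24 libraries, while DESeq2 called 3 higher and limma voom 5 higher and 2 lower.

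Potassium channel genes gave 3 higher members of 64 (4.69%), a share near that of all genes (3.8%), while limma voom called 9 higher and 3 lower. The tandem-pore channel gene twk-5 had 938, 946 and 1570 CPM in late L4 and 154.4, 175 and 148 CPM in early L4 (2.86 ± 0.58, adjusted p = 0.00451). Its highest DTC mean was at late L4, in a series of 51.8 ± 9.17, 159 ± 14.1, 1151 ± 363 and 192 ± 54.3 CPM (in order from late L3 to adult, SD, n = 3 each), and other cells averaged 35.1 CPM or less. Its relative twk-1 (1.71 ± 0.43, adjusted p = 0.0204) and the inward rectifier irk-3 (2.83 ± 0.78, adjusted p = 0.0365) also rose, with calls lost without 4 and 6 of the 6 libraries (0.0623 to 0.189). Outside this list mps-2, which encodes an accessory subunit of potassium channels, had 610, 514 and 1042 CPM in late L4 and 24.7, 21.2 and 7.28 CPM in early L4 (5.35 ± 0.49, adjusted p = 2.45e-06).

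Nuclear hormone receptor genes, a family expanded in nematodes, gave 9 higher members of 206 (4.37%), a share near that of all genes (3.8%), with 5 to 8 higher without any 1 DTC library. The lowest adjusted p among them was that of nhr-101, with 178, 161 and 254 CPM in late L4 and 14.8, 15 and 8.76 CPM in early L4 (3.94 ± 0.47, adjusted p = 3.1e-05). Of its exons, 69.2% overlap a gene in antisense, and since the counting's strand setting is not given, reads of both may be mixed. Also higher were nhr-76 (6.14 ± 0.89, adjusted p = 0.000213), nhr-3 (3.51 ± 0.57, adjusted p = 0.000703) and nhr-1 (1.59 ± 0.30, adjusted p = 0.00237).

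Cuticle genes changed in both directions. Cuticle collagens form the worm's exoskeleton and are made in pulses at each molt by the hypodermis. Of 159 tested, 36 were higher (22.6%) and 6 lower (3.77%). The adult collagen col-19 had 1051, 867 and 205 CPM in late L4 and 1.2, 0.619 and 0.156 CPM in early L4 (10.06 ± 1.06, adjusted p = 8.96e-06), and col-140 had 6043, 4004 and 1028 CPM in late L4 and 11.13, 5.01 and 5.63 CPM in early L4 (8.99 ± 0.88, adjusted p = 4.86e-06). In both, late L4 replicate 3 was several-fold below replicates 1 and 2. The furrow collagen dpy-7 fell to 0.19, 0 and 0 CPM in late L4, against 13.1, 16.6 and 10.1 CPM in early L4 (adjusted p = 0.00097), with dpy-3 (-4.83 ± 1.03, adjusted p = 0.00661), dpy-9 (-4.69 ± 0.93, adjusted p = 0.00382) and col-128 also among the 6.

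The precuticle, a transient matrix laid down before each new cuticle, had 6 of 36 genes lower (16.7%, and 3 to 5 without any 1 DTC library) and 1 higher. The scaffold gene noah-1 fell to 7.39, 2.36 and 2.65 CPM in late L4, against 179, 173 and 179 CPM in early L4 (-5.42 ± 0.80, adjusted p = 0.00024). Lipocalin genes lpr-3 and lpr-1, the matrix genes let-653 and sym-1 (-4.11 ± 0.75, adjusted p = 0.00203) and fbn-1 were the other falls. Of these lpr-3 lost its call without late L4 replicates 1 or 3 (0.0885 and 0.0706), lpr-1 without 4 of 6 libraries (up to 0.118) and fbn-1 without any 1 (0.0551 to 0.098). The convertase gene bli-4, which processes collagens, rose (1.62 ± 0.28, adjusted p = 0.00106).

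Other cells had called steps of the same kind. There col-19 averaged 1739 ± 425 CPM at late L4 and 2.31 ± 2.76 CPM at early L4, noah-1 averaged 3.25 ± 2.84 CPM at late L4 and 111 ± 66.5 CPM at early L4, and 33 cuticle collagens rose and 5 fell. The difference between the steps of DTC and other cells was called by edgeR for 0 cuticle collagens (3 at an unadjusted p under 0.05, 1 by limma voom, 0 by DESeq2) and 0 precuticle genes (5 at an unadjusted p under 0.05, 2 by limma voom, 3 by DESeq2). In DTC, the 29 hypodermis and seam markers summed to 1689 to 8895 CPM in late L4, lowest in replicate 3, and to 1026 to 2107 CPM in early L4. Between 1 and 7 of them were at 0 in late L4 and 1 in each early L4 library, and 4 rose and 4 fell. The part of hypodermal RNA in the cuticle changes was not tested. Without late L4 replicate 3, 39 collagens were higher and 5 lower, and without any 1 DTC library 26 to 39 were higher, the fewest without early L4 replicate 3.

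All 6 yolk protein genes rose (vit-1 to vit-6, whose copies can share reads). The level of vit-2 was 823, 445 and 874 CPM in late L4 DTC and 0.32, 1.97 and 0 CPM in early L4 DTC (9.78 ± 1.27, adjusted p = 0.000115). In adults vit-2 averaged 46381 ± 27546 CPM in DTC and 8082 ± 5389 CPM in other cells (SD, n = 3 each). In other cells 4 of the 6 were called at late L4, and a different step between the fractions was called for 0 by edgeR, DESeq2 and limma voom (2 at an unadjusted p under 0.05). Without early L4 replicate 1 or 3, 4 of the 6 were called in DTC, and limma voom called 3. Yolk proteins are made in the intestine. The 28 intestinal markers, which include vit-2 and vit-6, summed to 3669 to 5201 CPM in late L4 DTC and 1064 to 1324 CPM in early L4 DTC without overlap. Of these markers, 23 had a fitted value above 0 and 5 below (median 1.23). The part of intestinal RNA in these rises was not tested.

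Oocyte markers gave 5 higher (23.8%) and 1 lower gene (4.76%) of 21. The eggshell gene perm-4 had 610, 704 and 332 CPM in late L4 DTC and 6.49, 15.9 and 3.76 CPM in early L4 DTC (5.97 ± 0.92, adjusted p = 0.000413), and perm-2 rose by 5.49 ± 1.07 (adjusted p = 0.0032). In other cells perm-4 averaged 3678 ± 1074 CPM at late L4 and 27.7 ± 6.12 CPM at early L4. The oocyte list summed to 1434 to 2823 CPM in late L4 DTC and 1364 to 1621 CPM in early L4 DTC, with none at 0, and its groups overlapped. The count was 7 higher without late L4 replicate 3. It was 2 higher without any of early L4 replicates 1 to 3 or late L4 replicates 1 or 2, and in the 6 compared libraries.

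Germ cell and sperm lists had few calls by edgeR, though most of their fitted values lay on 1 side of 0. Of 30 germ cell markers the helicase gene glh-1 was lower (-1.09 ± 0.29, adjusted p = 0.0329, lost without 4 of 6 libraries at 0.0918 to 0.194). The list summed to 1722 to 2235 CPM in late L4 DTC and 2785 to 3218 CPM in early L4 DTC, without overlap. Fitted values lay below 0 for 28 of the 30 (median -0.66), and limma voom called 13 markers lower and 0 higher. Of 57 sperm markers 1 rose, msp-65 (4.17 ± 1.03, adjusted p = 0.0199, lost without 4 of 6 libraries at 0.0598 to 0.121). Sperm sums of 2284 to 5211 CPM in late L4 and 1286 to 2767 CPM in early L4 overlapped. Fitted values lay above 0 for 46 of the 57 (median 1.39), and limma voom called 27 higher and 1 lower. The synaptic vesicle gene snt-1 was the 1 neuronal marker of 51 called, lower at 7.96, 3.53 and 9.91 CPM in late L4, against 72.2, 64.4 and 78.6 CPM in early L4 (-3.33 ± 0.63, adjusted p = 0.00253). Neuronal sums overlapped at 1767 to 1857 CPM in late L4 and 1723 to 2127 CPM in early L4. Glial markers (17 genes) summed to 528 to 671 CPM in late L4 and 1562 to 1580 CPM in early L4, and lit-1, the 1 lower member, made up most of that sum. No marker of coelomocytes (11) or pharynx (15) was called by edgeR or DESeq2. At an unadjusted p under 0.05, 1 coelomocyte marker was lower and 1 pharynx marker higher, and limma voom called 1 coelomocyte marker in each direction. Vulva and anchor cell markers (17) gave zmp-1 higher and let-653 lower, and excretory markers (17) gave let-653 lower.

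Further lists had few calls by edgeR, beside 3.8% higher and 1.77% lower of all genes tested. Shares higher were 4.11% of hedgehog-related genes, 4.8% of C-type lectins and 1.57% of neuropeptides and insulins. Shares lower were 5.41% of small RNA genes, 4.35% of histones and 2.13% of cell cycle genes. Limma voom called 19 lectins higher and 2 lower, and 15 neuropeptides and insulins higher and 4 lower. It also called 19 F-box genes higher and 15 lower, and 10 cell cycle genes lower. Hedgehog-related genes gave 3 higher of 73 (grd-5, grd-3 and grl-4) and wrt-10 lower, and grd-3 and grl-4 each lost their calls without 5 of 6 libraries (0.0538 to 0.194). C-type lectins gave 6 higher of 125, led by clec-222, clec-223, clec-88 and clec-97, and neuropeptides and insulins 2 higher (nlp-24 and nlp-27) and 1 lower (ins-29) of 127. Those calls were lost without 3 libraries for nlp-24 (0.0618 to 0.111), 4 for nlp-27 (0.0942 to 0.208) and each of the 6 for ins-29 (0.0762 to 0.165). Small RNA genes gave 2 lower of 37: tsn-1, which encodes a Tudor nuclease, at 82.3, 66.9 and 36.7 CPM in late L4 and 254, 285 and 330 CPM in early L4 (-2.23 ± 0.26, adjusted p = 3.03e-05), and the Dicer gene dcr-1 (-1.28 ± 0.32, adjusted p = 0.0225, lost without 4 of 6 libraries at 0.0628 to 0.131). The histone gene his-41 (-1.35 ± 0.22, adjusted p = 0.000693) and its fellow his-35 (lost without 3 of 6 libraries at 0.0529 to 0.143) were the 2 lower of 46 histone genes, and his-41 shares 33.6% of its exons with a gene on the same strand. Of 47 cell cycle genes the topoisomerase gene top-2 was lower, and its call was lost without any 1 library (0.0815 to 0.173). Of 172 F-box genes fbxa-154 was lower, and of 11 haem peroxidases bli-3 was higher.

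Whether a step was particular to the DTC was asked by testing the difference between its step and that of other cells. That test called 64 genes (0.379% of those tested), 28 with a more positive step in DTC (0.166%) and 36 with a more negative one (0.213%). In other cells alone, late L4 differed from early L4 in 353 genes (2.09%), 312 higher (1.85%) and 41 lower (0.243%). Of the 641 genes higher in DTC, 210 were also called higher in other cells, and of the 299 lower genes 25 were also called lower there. The count of 64 fell to 35 without early L4 DTC replicate 1, 34 without early L4 DTC replicate 3 and 33 without late L4 DTC replicate 3. It was 26, 29 and 37 without other-cell replicates 1, 2 and 3 of early L4 and 38 without other-cell replicate 1 of late L4.

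Steps that were more positive in DTC included those of adh-1, alh-1, mps-2 and acs-2. Alcohol dehydrogenase gene adh-1 (chromosome V, 11888248 to 11889650, plus strand) had 7487, 7535 and 11473 CPM in late L4 DTC and 673, 853 and 443 CPM in early L4 DTC (3.75 ± 0.46, adjusted p = 4.36e-05). Other cells averaged 938 ± 21.1 CPM at late L4 and 683 ± 85.8 CPM at early L4, and the steps differed by 3.29 ± 0.60 (adjusted p = 0.0145). Aldehyde dehydrogenase gene alh-1 had 334, 338 and 560 CPM in late L4 DTC and 59.6, 61.7 and 57.3 CPM in early L4 DTC, while other cells averaged 108 ± 12.2 CPM at late L4 and 124 ± 2.62 CPM at early L4 (difference 2.99 ± 0.37, adjusted p = 0.000413). The difference was 4.85 ± 0.60 for mps-2 (adjusted p = 0.000413), 4.02 ± 0.86 for acs-2 (adjusted p = 0.0416), 3.14 ± 0.65 for unk-1 (adjusted p = 0.0334), 1.81 ± 0.37 for lpin-1 (adjusted p = 0.029) and 1.34 ± 0.25 for the 14-3-3 gene par-5 (adjusted p = 0.0162). Of the 55 lipid genes, acs-2, lpin-1 and the fatty acid binding protein gene lbp-1 had called differences, the last more negative in DTC (-2.42 ± 0.51, adjusted p = 0.0403) and named after its value was seen.

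**Figure D4:**
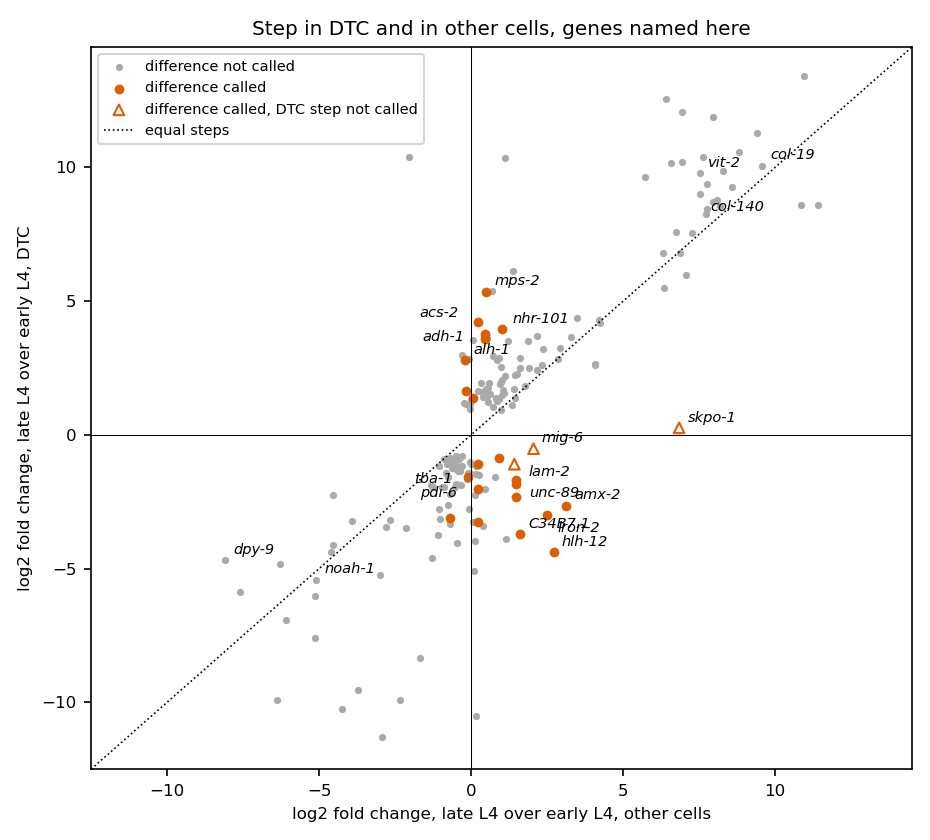
Log2 fold change of late L4 over early L4 in DTC (vertical axis) against that in other cells (horizontal axis) for the genes named here that were called in DTC, with a dotted line at equal steps. Filled orange points have a called difference between the fractions, as for hlh-12 (-7.09) and mps-2 (4.85), and open triangles have one with no called step in DTC, as for skpo-1 (-6.59). Collagen and yolk genes such as col-19 and vit-2 lie near the line at upper right.

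Steps that were more negative in DTC were led by hlh-12 (difference -7.09 ± 1.22, adjusted p = 0.0109), although other cells held little of it (1.52 ± 1.35 CPM at late L4 and 0.223 ± 0.201 CPM at early L4). The haem peroxidase gene skpo-1 showed the opposite arrangement. It had 27.6, 61.5 and 33 CPM in late L4 DTC and 34.8, 33.3 and 34 CPM in early L4 DTC with no call, while other cells averaged 144 ± 11 CPM at late L4 and 1.24 ± 0.679 CPM at early L4 (difference -6.59 ± 0.79, adjusted p = 0.000355). The amine oxidase gene amx-2 fell in DTC, to 12.1, 18.9 and 10 CPM in late L4 against 95, 81.1 and 82.2 CPM in early L4, and averaged 42.8 ± 27.8 CPM at late L4 and 4.89 ± 3.43 CPM at early L4 in other cells (difference -5.78 ± 0.89, adjusted p = 0.00408). Its DTC call was lost without late L4 replicate 1 (0.0708) or 3 (0.0632).

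Matrix and muscle genes also parted between the fractions. For lam-2 the difference was -3.16 ± 0.66 (adjusted p = 0.0334), for epi-1 -2.53 ± 0.50 (adjusted p = 0.0265) and for mig-6 -2.57 ± 0.47 (adjusted p = 0.0145). In other cells mig-6 averaged 4480 ± 2447 CPM at late L4 and 1081 ± 34.6 CPM at early L4. The obscurin gene unc-89, which organises muscle sarcomeres, fell to 293, 216 and 102 CPM in late L4 DTC, against 664, 668 and 874 CPM in early L4 DTC (-1.85 ± 0.37, adjusted p = 0.00393), and averaged 535 ± 178 CPM at late L4 and 190 ± 39.3 CPM at early L4 in other cells (difference -3.34 ± 0.52, adjusted p = 0.00422). The difference for unc-98, another muscle attachment gene, was -1.78 ± 0.30 (adjusted p = 0.0109). Its DTC call was lost without early or late L4 replicates 2 or 3 (0.0701 to 0.0847). Among genes of the lists above, pdi-6 (-2.27 ± 0.48, adjusted p = 0.0364), tba-1 (-1.45 ± 0.27, adjusted p = 0.0205) and tba-2 (-1.32 ± 0.25, adjusted p = 0.0215) had more negative steps in DTC and nhr-101 (2.95 ± 0.60, adjusted p = 0.0315) a more positive one. For the ER chaperone gene hsp-3 the difference missed the threshold (-1.63, adjusted p = 0.0908), as it did for him-4 (-2.38 ± 0.55, adjusted p = 0.0716).

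Several abundant genes fell steeply, named here after their values were seen. The gene F49E10.2 (chromosome X, 5890380 to 5894757, plus strand) had 31.8, 53.4 and 27.3 CPM in late L4 DTC, against 1987, 2234 and 2315 CPM in early L4 DTC (-5.86 ± 1.29, adjusted p = 0.00846, and 0.054 without late L4 replicate 1). Its DTC means were 253 ± 383, 2179 ± 171, 37.5 ± 14 and 0.856 ± 1.48 CPM in order from late L3 to adult (SD, n = 3 each), with the highest mean at early L4. The neural cell adhesion molecule homologue ncam-1 (chromosome X, 691913 to 703047, plus strand) had 65.8, 99.9 and 64.8 CPM in late L4, against 1569, 1676 and 2349 CPM in early L4 (-4.60 ± 0.73, adjusted p = 0.00054). The leucine-rich repeat gene lron-9 had 38.7, 30.3 and 19.5 CPM in late L4, against 388, 331 and 473 CPM in early L4 (-3.75 ± 0.46, adjusted p = 4.43e-05).

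A relative, lron-2, fell to 20.5, 18.9 and 26.5 CPM, against 118, 205 and 208 CPM in early L4, with a more negative step than in other cells (difference -5.52 ± 0.97, adjusted p = 0.0145) and a DTC call lost without late L4 replicate 1 (0.0629) or 2 (0.0699). The cathepsin gene tag-196 fell to 102.7, 166 and 72.2 CPM, against 883, 868 and 1237 CPM in early L4 (-3.13 ± 0.40, adjusted p = 5.79e-05, difference -2.44 ± 0.53, adjusted p = 0.0471). Steps more negative in DTC were also called for C34B7.1 (difference -5.31 ± 1.06, adjusted p = 0.0266), F13D12.10 (-3.51 ± 0.49, adjusted p = 0.00133) and the carboxypeptidase gene cpd-2 (-3.82 ± 0.82, adjusted p = 0.0417). For cpd-2 the DTC call was lost without early L4 replicate 1 or late L4 replicates 1 or 3 (0.0942 to 0.0963).

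**Figure D5:**
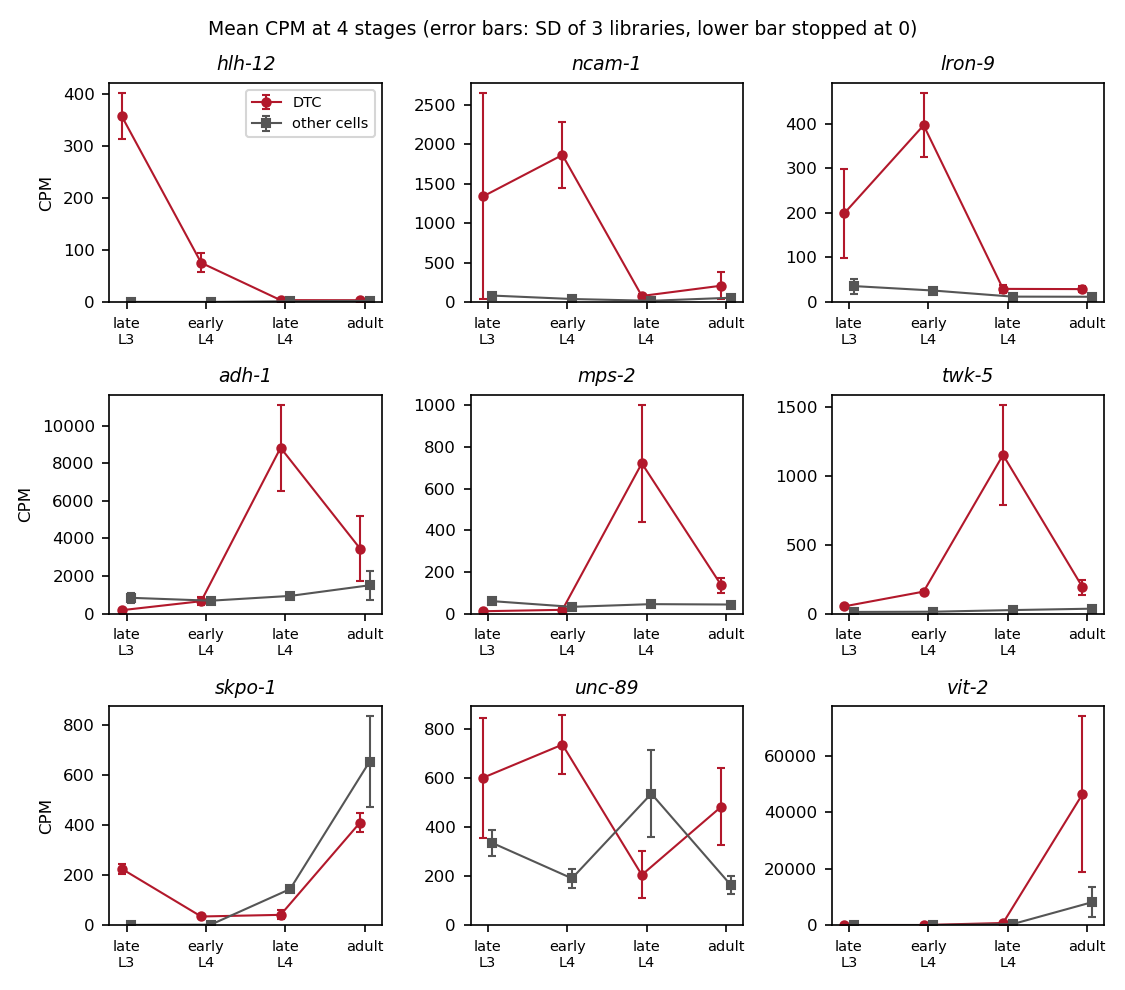
Mean CPM of 9 genes at the 4 stages, in order from late L3 to adult, in DTC (red circles) and other cells (grey squares), with error bars of 1 SD over 3 libraries. In DTC, hlh-12, ncam-1 and lron-9 drop between early and late L4, adh-1, mps-2 and twk-5 have their highest mean at late L4, and vit-2 reaches its highest mean in adults.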

How the data were processed

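RNA was measured by sequencing in 24 libraries. Per the submitters' processing notes, reads were checked with FastQC, trimmed with cutadapt, aligned with Bowtie2 to ce11 and counted per gene with HTSeq; the sources used here give neither versions nor the strand setting. The authors deposited 1 table of raw counts (46778 gene IDs), of which 43818 (93.7%) had a symbol in the names table and 46603 (99.6%) lay in Ensembl release 115 (WBcel235, the assembly of ce11), which gave coordinates and exon overlaps. Genes with near-identical copies (act, col, msp, vit, gpd, histone and tubulin genes) and overlapping genes are uncertain, since the counting may split or mix their reads.

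From the counts, genes were kept by filterByExpr in edgeR 4.0.16 (R 4.3.3), scaled by TMM, and fitted by 1 quasi-likelihood model with 8 group means over all 24 libraries (16 residual degrees of freedom, common biological coefficient of variation 0.835). Calls needed an adjusted p (Benjamini-Hochberg) under 0.05. Standard errors were taken from the fold change and the F statistic. CPM uses TMM-scaled library sizes. Where a group had 0 counts, a bound was set against 3 counts over the group, which covers counting error only. 3 counts correspond to 0.169 to 0.284 CPM in a DTC library of the compared stages.

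Named genes were the 12 highest and 12 lowest fold changes among called, separated genes with a symbol and at least 5 CPM in the higher group, up to 4 called members per direction of each list, 22 fixed DTC genes, and the 5 highest and 5 lowest called differences between fractions; further genes were added after their values were seen (skpo-1, epi-1, lam-1, par-5, phy-2, let-268, hsp-4, nmy-1, ptrn-1, elt-2, ges-1 and abundant genes that changed most). The 42 gene lists and 14 marker lists, and the members described, were chosen with earlier results of these data known; 3 misplaced genes (egl-19, bet-1, coel-1) were corrected after the table was read, and 52 listed symbols matched none in it. The result of 1 gene list is not reported here. Whether replicate numbers pair the libraries is not given in the sources used here. Same-numbered late and early L4 DTC libraries deviated together with correlations of 0.042, 0.125 and 0.28. Libraries of unlike number had correlations from -0.257 to 0.197. These few values cannot decide on pairing, and the main fit treated the libraries as unpaired. Alternatives were DESeq2's size factors, DESeq2, limma voom with sample weights, no filter, no rRNA or mitochondrial genes, the replicate number as a block, the 12 DTC or the 6 compared libraries alone, and leaving out single libraries. The fit was also run on counts simulated from its own fitted means and spreads, with changes planted in well-counted genes only. That run cannot tell how the fit does on low genes.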

Additional observations from a re-analysis of the deposited data

Results flagged for a closer look

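The step between early and late L4 differed between DTC and other cells, by the test of the difference itself, in 25 of the genes described above. Values are the log2 step in DTC minus that in other cells. The count of 64 genes called by this test became 26 to 71 when 1 library was left out. Whether each gene listed here kept its call is not given. Steps more negative in DTC were found for hlh-12 (-7.09), skpo-1 (-6.59), amx-2 (-5.78), lron-2 (-5.52), C34B7.1 (-5.31), cpd-2 (-3.82), F13D12.10 (-3.51), unc-89 (-3.34), lam-2 (-3.16), mig-6 (-2.57), epi-1 (-2.53), tag-196 (-2.44), lbp-1 (-2.42), pdi-6 (-2.27), unc-98 (-1.78), tba-1 (-1.45) and tba-2 (-1.32). Steps more positive in DTC were found for mps-2 (4.85), acs-2 (4.02), adh-1 (3.29), unk-1 (3.14), alh-1 (2.99), nhr-101 (2.95), lpin-1 (1.81) and par-5 (1.34).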

How the results depend on the processing

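Calls were more numerous with other tools and with fewer groups sharing the spread. Against 641 higher and 299 lower genes, DESeq2 called 1489 and 563, limma voom 2196 and 1618, and edgeR on the 6 compared libraries alone 966 and 638. Leaving out 1 library gave 326 to 725 higher and 114 to 280 lower genes. For the difference between fractions (64 genes), DESeq2 called 336, limma voom 433, and leaving out 1 library 26 to 71. For late against early L4 in other cells (353 genes), DESeq2 called 1063, limma voom 1765, and leaving out 1 library 170 to 485. The cause was not tested. The fit with the replicate number as a replicate block gave 590 higher and 261 lower genes, of which 560 and 248 were among the main calls, 63 differences between fractions and 357 genes in other cells. The other settings stayed within 1.5 times of these counts. Fitted signs turned in 5 uncalled genes: unc-5 with DESeq2's size factors and with DESeq2 (both 0.01), and with 1 library left out, unc-5 (-0.47 to 0.12), apx-1 (-0.05 to 0.24), daf-12 (-0.06 to 0.27), pat-3 (-0.01 to 0.26) and skpo-1 (-0.11 to 0.47). With 3 libraries a group, changes of low genes are the least certain.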
